A study of Mus musculus with 15 samples.

Results

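The membrane-spanning 4-domain (MS4A) genes encode a family of small tetraspan surface proteins, and 8 of them were examined in tumor-associated macrophages (TAMs). The members were Ms4a1, Ms4a4a, Ms4a4b, Ms4a4c, Ms4a6b, Ms4a6c, Ms4a6d and Ms4a7, chosen by gene symbol. Each symbol matched a single row among the 55335 genes of the expression table. In TAMs from tumors overexpressing miR-144 or miR-451a, Ms4a4c, Ms4a6b and Ms4a6c rose to between 3.82-fold and 16.5-fold of the control level, Ms4a6d and Ms4a7 rose by less, and Ms4a4a, the most abundant member in control TAMs, did not pass the test.

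RNA-seq had been performed on TAMs sorted by flow cytometry from orthotopic hepatocellular carcinoma (HCC) in C57BL/6 mice. The tumors grew from Hepa1-6 cells, a mouse hepatoma line, placed in the liver after lentiviral marking with luciferase. The 3 groups, with 5 samples each and 15 in all, were TAMs of tumors grown from control cells, from miR-144-overexpressing cells or from miR-451a-overexpressing cells. The overexpression was in the tumor cells and not in the TAMs. For sorting TAMs of tumors, the study's methods name antibodies against CD11b (Itgam) and F4/80 (Adgre1). The labels give no age, sex or batch, and they do not say that the samples of a group come from separate mice, so the p-values measure the spread between these samples, which may be technical. The study's account of this sequencing gives fewer replicates a group than the table holds, so some samples of a group may not be independent, and p-values would then be too small.

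MS4A proteins work largely as partners of other surface receptors, whose clustering, signalling or internalization they adjust. Ms4a1 (CD20) marks B cells and is the target of therapeutic antibodies such as rituximab. Ms4a4a, Ms4a6d and Ms4a7 are best known from macrophages, and Ms4a4b from T cells. Ms4a4a associates with the beta-glucan receptor dectin-1 (Clec7a), and Ms4a6d has been tied to Vsig4 and to restraint of the NLRP3 inflammasome.

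All 8 members lie on chromosome 19 in the GENCODE M21 annotation (GRCm38), inside a run of MS4A genes from 10962293 to 11640851. The build used for the expression table is not given in the sources used here, but 99.7% of its identifiers occur in this annotation and all 8 members have the same symbol there. Ms4a1 (ENSMUSG00000024673, 11249675 to 11266241) and Ms4a7 (ENSMUSG00000024672, 11321039 to 11336146) are on the minus strand. Ms4a4a (ENSMUSG00000101389, 11375523 to 11392790), Ms4a4c (ENSMUSG00000024675, 11404770 to 11427246), Ms4a4b (ENSMUSG00000056290, 11443553 to 11467055), Ms4a6c (ENSMUSG00000079419, 11469366 to 11482192) and Ms4a6b (ENSMUSG00000024677, 11516512 to 11531256) follow each other on the plus strand. Ms4a6d (ENSMUSG00000024679, 11586604 to 11604849) is again on the minus strand. The members include neighbouring near-copies, and how well these could be told apart bears on their values.

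The closest pair in coding sequence was Ms4a4b and Ms4a4c, identical at 91.7% of 678 aligned bases. Ms4a6b was identical with Ms4a6c at 85.4% and with Ms4a6d at 81.2% of aligned coding bases, and Ms4a6c with Ms4a6d at 79.0%. The other pairs lay between 59.3% and 68.3%. Short reads are most open to assignment to the wrong copy where stretches are shared exactly. Of the 50-base stretches of the longest transcript, 11.3% for Ms4a6c, 8.48% for Ms4a4c, 4.19% for Ms4a4b, 3.28% for Ms4a6b, 2.92% for Ms4a6d and 0.395% for Ms4a7 also occur in transcripts of other genes, and none for Ms4a4a or Ms4a1. For Ms4a6c a further limit applies, because 53.1% of its exonic bases lie within exons of BE692007, a transcript on the opposite strand. Whether the libraries kept strand is not given in the sources used here, so reads of Ms4a6c and BE692007 cannot be told apart there.

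Promoter windows of 300 bases, from 250 bases before to 50 after a RefSeq start, were found for 6 members, all but Ms4a1 and Ms4a6d. Only the near-copies shared sequence in them. The windows of Ms4a4b and Ms4a4c were identical at 81.9% of 281 aligned bases, with 8 shared runs of at least 8 bases. Those of Ms4a6b and Ms4a6c were identical at 85.3% of 225 aligned bases, with 6 such runs, the longest of 48 bases. The other 13 pairs of members shared no run of that length. The 4 windows are printed because Ms4a4b with Ms4a4c and Ms4a6b with Ms4a6c are the pairs of near-copies whose levels are compared in the results. They are from RefSeq on GRCm38.p6, plus strand, 5′ to 3′, at chr19:11443308-11443607 for Ms4a4b, chr19:11407411-11407710 for Ms4a4c, chr19:11518309-11518608 for Ms4a6b and chr19:11469118-11469417 for Ms4a6c. Capitals mark the runs that each window shares with its partner.
Ms4a4b: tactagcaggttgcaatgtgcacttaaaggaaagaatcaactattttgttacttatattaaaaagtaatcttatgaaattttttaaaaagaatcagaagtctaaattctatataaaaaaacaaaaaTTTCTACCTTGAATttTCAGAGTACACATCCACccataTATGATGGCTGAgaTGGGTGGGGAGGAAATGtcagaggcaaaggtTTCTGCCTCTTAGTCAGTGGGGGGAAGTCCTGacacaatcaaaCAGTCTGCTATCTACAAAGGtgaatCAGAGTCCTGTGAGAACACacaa
Ms4a4c: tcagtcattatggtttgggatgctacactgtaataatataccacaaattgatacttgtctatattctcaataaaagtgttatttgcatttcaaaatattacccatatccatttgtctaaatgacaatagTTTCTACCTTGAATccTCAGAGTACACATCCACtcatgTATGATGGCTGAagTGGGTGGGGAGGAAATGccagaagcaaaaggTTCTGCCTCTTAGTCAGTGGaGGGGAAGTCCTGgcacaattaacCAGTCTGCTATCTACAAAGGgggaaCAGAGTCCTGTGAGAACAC
Ms4a6b: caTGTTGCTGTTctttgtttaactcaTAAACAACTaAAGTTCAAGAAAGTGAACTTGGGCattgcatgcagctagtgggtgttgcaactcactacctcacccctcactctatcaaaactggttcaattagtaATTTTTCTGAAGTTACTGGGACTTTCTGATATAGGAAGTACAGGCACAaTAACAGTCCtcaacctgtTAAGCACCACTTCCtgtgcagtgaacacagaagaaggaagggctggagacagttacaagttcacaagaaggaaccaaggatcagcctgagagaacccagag
Ms4a6c: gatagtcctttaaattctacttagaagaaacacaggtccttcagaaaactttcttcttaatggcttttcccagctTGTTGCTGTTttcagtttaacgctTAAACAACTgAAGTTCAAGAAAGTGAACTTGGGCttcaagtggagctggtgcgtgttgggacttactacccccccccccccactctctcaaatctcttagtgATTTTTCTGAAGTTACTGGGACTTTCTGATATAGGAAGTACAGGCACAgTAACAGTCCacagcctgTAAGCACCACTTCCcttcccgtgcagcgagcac

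Among the motifs searched on both strands in these windows, the STAT6 site TTCNNNNGAA was found in Ms4a6b, as TTCACAAGAA starting 9 bases after the start, and in Ms4a7, as TTCCGGGGAA starting 13 bases before it (position -13). This motif was in 6.95% of the 32851 promoter windows of the table. The interferon-stimulated response element GAAANNGAAA (3.44% of all windows), the GAS site TTCNNNGAA (8.30%) and the PU.1 core GAGGAAGT (3.20%) had no match in the members' windows. These are matches of letters and not binding sites.

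The values are FPKM, fragments per kilobase of transcript scaled to the mapped fragments of the sample, so levels are comparable between genes per length. The steps between low values imply a depth of 15.6 to 30.5 M fragments in the samples. All 6 hepatocyte genes were listed at 0. Adgre1, the gene of the sorting marker F4/80, was present in every sample and itself rose, from 131 to 141 FPKM in control samples to 334 to 394 with miR-144 and 336 to 380 with miR-451a (differences 1.39 and 1.36, limma adjusted p = 2.15e-12 and 2.49e-12), and its part in the members' values was not tested. Differences were tested with limma on log2(FPKM + 1), a scale that understates the change of low genes. The test ran over 11419 genes, each averaging 1 FPKM or more over the 15 samples, and a gene was called at an adjusted p under 0.05. The median difference of these genes from control was 0.13 for miR-144 and 0.14 for miR-451a. Most genes were called. The miR-144 group had 5376 of them above control and 2292 below, and the miR-451a group 5490 above and 2314 below. This split depends on scaling. With each sample centred on its median it was 3512 and 3511 for miR-144 and 3577 and 3636 for miR-451a. After quantile normalization it was 3657 and 3341, and 3760 and 3425. After rescaling each sample to a fixed sum (TPM) it widened to 6128 and 1878, and 6351 and 1861. In bulk samples, fewer cells of a type and less RNA per cell cannot be told apart.

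Of the 6 members with a mean of at least 1 FPKM, 5 rose and 0 fell in the miR-144 group, against 47.1% of all genes tested that were called higher and 20.1% that were called lower. The same counts, 5 and 0, were found for the miR-451a group, against 48.1% and 20.3%. The median difference of the 6 genes was 1.17 for miR-144 and 1.13 for miR-451a, on the log2(FPKM + 1) scale. These 5 genes had every miR-144 value above every control value, as did 37.9% of all genes tested, and likewise every miR-451a value, as did 38.8% of all genes tested. Both comparisons use the same 5 control samples. Ms4a4b and Ms4a1 were below 1 FPKM in all samples and were tested among the 29540 genes above 0 in at least 1 sample, where Ms4a4b was called higher in both comparisons, against 23.1% of genes for miR-144 and 24.5% for miR-451a.

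**Figure D1:**
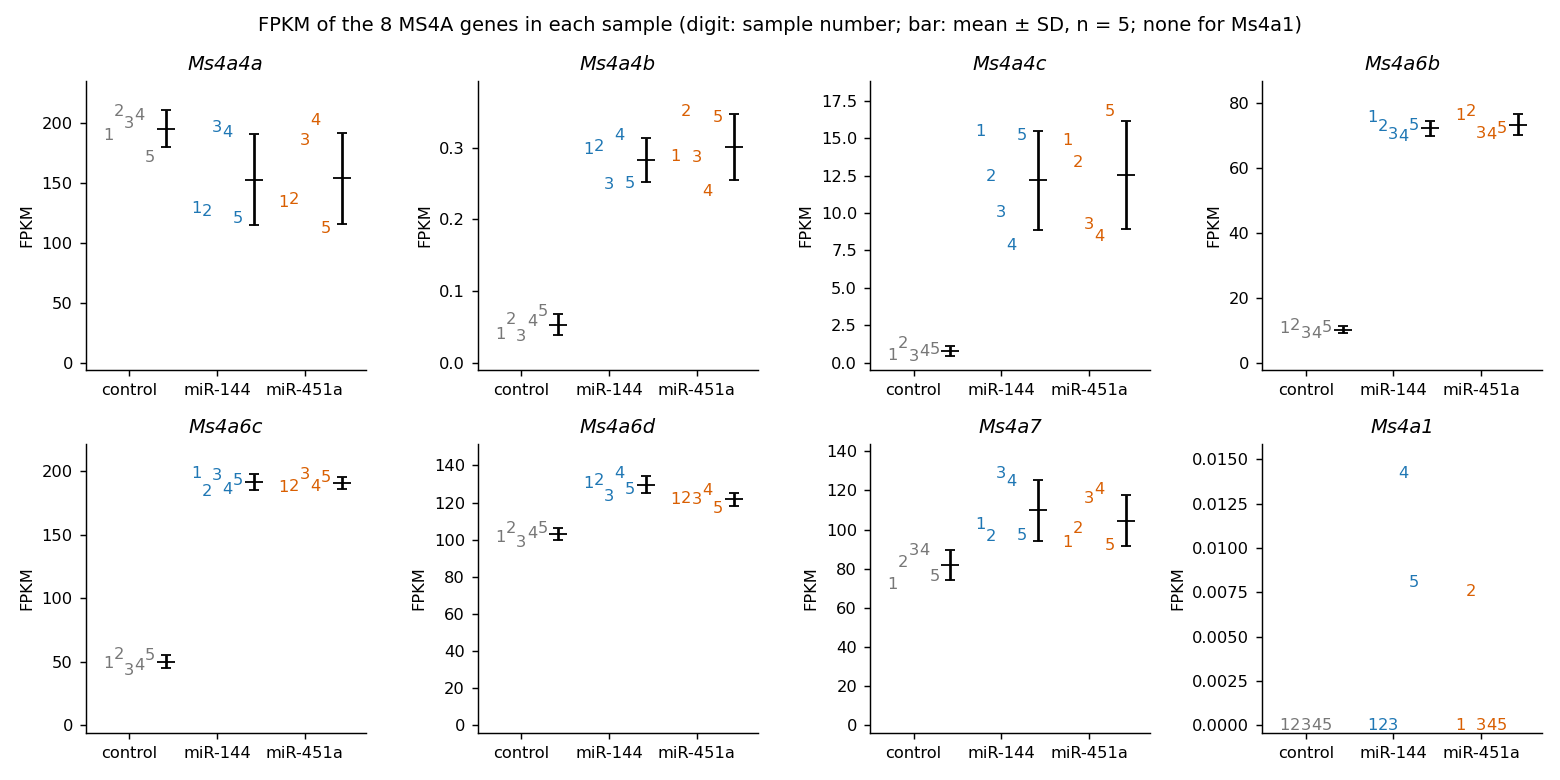
FPKM (vertical axis, linear) of each of the 8 MS4A genes in every sample of the control, miR-144 and miR-451a groups. Each digit is a sample at its number in the labels and each bar is the mean ± SD of 5 samples (none for Ms4a1, mostly listed at 0). Ms4a6b and Ms4a6c form tight separate bands, while samples 3 and 4 of the miR-144 and miR-451a groups lie apart from the others for Ms4a4a and Ms4a7.

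Ms4a4c, a member of which little is known beyond its expression in myeloid cells, showed the largest difference. In control samples 1 to 5 it was at 0.478, 1.28, 0.428, 0.723 and 0.884 FPKM. In the miR-144 group it was at 15.5, 12.5, 10.013, 7.84 and 15.2 FPKM, and in the miR-451a group at 14.8, 13.4, 9.21, 8.41 and 16.8 FPKM. Every sample of either miRNA group lay far above every control sample, with samples 3 and 4 the lowest in both miRNA groups. The mean was 0.758 ± 0.344 FPKM (SD, n = 5) in control TAMs, 12.2 ± 3.29 with miR-144 and 12.5 ± 3.61 with miR-451a, or 16.1-fold and 16.5-fold of control. On the log2(FPKM + 1) scale the differences were 2.89 (SE 0.21, limma adjusted p = 8.25e-09) and 2.92 (SE 0.21, limma adjusted p = 6.98e-09), which ranked 12 and 15 from the highest of the 11419 genes.

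Ms4a6b rose next in size and with much less spread. Its control values in samples 1 to 5 were 10.52, 11.5, 8.83, 9.11 and 10.7 FPKM. The miR-144 values were 75.3, 72.7, 70.2, 69.5 and 73.0 FPKM, and the miR-451a values were 76.1, 77.3, 70.6, 70.3 and 71.9 FPKM. The miRNA groups did not overlap the control, and their coefficients of variation were 3.21% and 4.44%, against 11.1% in control TAMs. The mean went from 10.1 ± 1.122 FPKM to 72.1 ± 2.32 with miR-144 and 73.3 ± 3.25 with miR-451a, 7.12-fold and 7.23-fold of control. The differences were 2.72 and 2.74 (SE 0.06 for both, limma adjusted p = 9.73e-15 and 8.12e-15).

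Ms4a6c, which in mice is the near-copy of Ms4a6b, became the member with the highest mean in both miRNA groups. It was at 49.0, 55.8, 43.5, 47.1 and 54.9 FPKM in control samples 1 to 5. With miR-144 it was at 198, 184, 196, 185 and 193 FPKM, and with miR-451a at 187, 188, 197, 188 and 195 FPKM. All 10 miRNA samples were above 3 times the highest control sample, and the coefficients of variation were 10.4% in control TAMs, 3.33% with miR-144 and 2.47% for miR-451a. The mean was 50.1 ± 5.22 FPKM in control TAMs and 191 FPKM in both miRNA groups (SD 6.36 for miR-144 and 4.72 for miR-451a), which is 3.82-fold of control. The difference was 1.92 in each comparison (SE 0.06, limma adjusted p = 2.69e-13 for miR-144 and 2.48e-13 for miR-451a). The opposite-strand transcript BE692007 was higher as well, at 3.82 to 4.70 FPKM in control samples, 14.3 to 18.3 with miR-144 and 16.5 to 20.2 with miR-451a, and how much of either value comes from shared reads was not tested.

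Ms4a6d, the third of the near-copies, changed much less. It was at 101.09, 106, 98.7, 103 and 106 FPKM in control samples 1 to 5, at 130.4, 132, 123, 135 and 127 FPKM with miR-144, and at 122, 122, 122, 126 and 117 FPKM in miR-451a samples. Neither miRNA group overlapped the control, and the coefficient of variation was between 2.81% and 3.59% in the 3 groups. Its differences of 0.33 for miR-144 (SE 0.03, limma adjusted p = 2.82e-07) and 0.24 for miR-451a (SE 0.03, limma adjusted p = 8.84e-06) exceeded the median of all genes by 0.20 and 0.10. The 3 near-copies thus stood at 7.12-fold (Ms4a6b), 3.82-fold (Ms4a6c) and 1.26-fold (Ms4a6d) of control with miR-144, and at 7.23-fold, 3.82-fold and 1.18-fold with miR-451a.

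Ms4a7, a marker of tissue macrophages, was at 71.99, 83.0, 89.2, 89.5 and 76.1 FPKM in control samples 1 to 5. It was at 102, 96.5, 128, 125 and 97.2 FPKM with miR-144, and at 93.4, 100.3, 116, 120.4 and 92.1 FPKM with miR-451a. No miRNA sample fell within the control range, and samples 3 and 4 were the highest in all 3 groups. The differences were 0.41 for miR-144 (SE 0.10, limma adjusted p = 0.00219) and 0.34 for miR-451a (SE 0.10, limma adjusted p = 0.00746). The latter call was lost, at 0.20 (adjusted p = 0.1102), when each sample was centred on its median.

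Ms4a4a, which supports dectin-1 signalling, was the only member among the 6 with lower means in the miRNA groups, but it was not called in the main fit. Control samples 1 to 5 were at 189, 209, 199, 206 and 171 FPKM. The miR-144 samples were at 128, 126, 196, 192 and 120.3 FPKM, and the miR-451a samples at 133, 136, 185, 201 and 112 FPKM. In both miRNA groups samples 3 and 4 lay within the control range, and samples 1, 2 and 5 lay below every control sample. The mean was 195 ± 15.5 FPKM in control TAMs, 152 ± 37.9 with miR-144 and 153 ± 38.0 for miR-451a. The differences were -0.38 for miR-144 (95% confidence interval -0.75 to -0.02, limma adjusted p = 0.0596) and -0.37 for miR-451a (-0.74 to -0.01, limma adjusted p = 0.0639), and relative to the median of all genes they were -0.51 for both.

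The side of the threshold on which Ms4a4a falls depends on the treatment of the samples. With each sample centred on its median the differences were -0.52 for both (adjusted p = 0.0167 and 0.0160), and in a fit over only the 2 groups compared the adjusted p was 0.0370 and 0.0425. Quantile normalization brought them to -0.19 and -0.18, not called (limma adjusted p = 0.396 for both). Rescaling to TPM gave -0.31 and -0.29, also not called (limma adjusted p = 0.111 and 0.133). Without sample 3 or sample 4 of the miR-144 group, the miR-144 difference was -0.48 or -0.47 (adjusted p = 0.0226 and 0.0259), and without sample 4 or 5 of the miR-451a group it stayed at -0.38 with adjusted p of 0.0430 and 0.0443. The miR-451a difference was -0.45 without its own sample 3 and -0.48 without its sample 4 (adjusted p = 0.0368 and 0.0195). A fit that gave each sample number its own level had the smallest values (limma adjusted p = 0.00528 and 0.00584), but the labels name no pairs. Of 25 settings, the main one included, 7 called Ms4a4a for miR-144 and 5 for miR-451a.

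**Figure D2:**
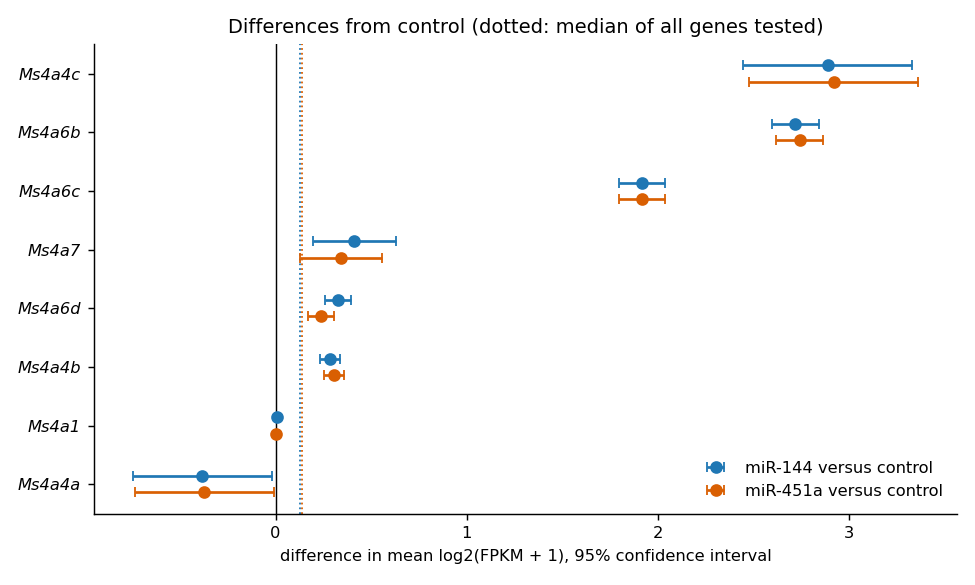
Difference from control in mean log2(FPKM + 1) (horizontal axis) for each MS4A gene, with 95% confidence intervals from limma, for miR-144 (blue) and miR-451a (orange). The dotted lines at 0.13 and 0.14 are the medians of all genes tested; Ms4a4c, Ms4a6b and Ms4a6c lie between 1.92 and 2.92, and Ms4a4a lies below 0.

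Samples 3 and 4 stood apart in Ms4a4a, Ms4a7 and Ms4a4c at once, which the plot of sample values against Ms4a4a shows. In the miR-144 and miR-451a groups they were the highest for Ms4a4a and Ms4a7 and the lowest for Ms4a4c. They were also the lowest for Ms4a6b, but by little. With miR-144 they were at 70.2 and 69.5 FPKM beside 72.7 in sample 2, and with miR-451a at 70.6 and 70.3 FPKM beside 71.9 in sample 5. Ms4a6c and Ms4a6d showed no such order in these groups. The labels name no batch that these numbers mark. Among control samples, 3 and 4 were not set apart for Ms4a4a, where sample 2 was the highest, but they were the highest for Ms4a7 and the lowest for Ms4a6b (8.83 and 9.11 FPKM) and Ms4a6c (43.5 and 47.1 FPKM).

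Some genes of liver-resident macrophages (Kupffer cells) stood apart in the same samples. Cd5l, a scavenger-type protein secreted by tissue macrophages, was at 3.21 to 3.65 FPKM in control samples, at 19.7, 19.3, 44.9, 48.9 and 16.4 FPKM in miR-144 samples 1 to 5, and at 18.3, 17.6, 38.4, 46.1 and 15.3 FPKM in miR-451a samples 1 to 5. The summed FPKM of the 6 Kupffer cell genes was 25.8 to 34.2 in control samples, 57.9 to 95.3 with miR-144 and 59.3 to 85.3 with miR-451a, and it was highest in samples 3 and 4 of both miRNA groups. Folr2, another gene of the list, went the other way, at 26.1, 21.98, 17.8, 19.4 and 31.2 FPKM with miR-144 and 23.5, 22.4, 17.6, 15.1 and 28.1 FPKM in miR-451a samples. Clec4f, the most specific gene of the list, was listed at 0 in all 15 samples, and 3 of the 6 genes stayed under 1 FPKM throughout. The monocyte genes summed to 8.46 to 13.4 FPKM in control samples, below every miRNA sample. Of all genes tested, 37.9% had every miR-144 value above every control value, and 38.8% every miR-451a value. Among the 4 monocyte genes that averaged 1 FPKM or more, 3 were called higher in both comparisons, against 47.1% and 48.1% of all genes. Within the miR-144 group the monocyte genes went the other way from Cd5l. Their sum was 15.4 and 14.8 FPKM in samples 3 and 4 and 23.2 to 33.3 in the others. In the miR-451a group the monocyte sum did not set samples 3 and 4 (19.3 and 19.6 FPKM) apart from sample 2 (19.5 FPKM). The part of the Kupffer cell and monocyte genes in the members' values was not tested.

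**Figure D3:**
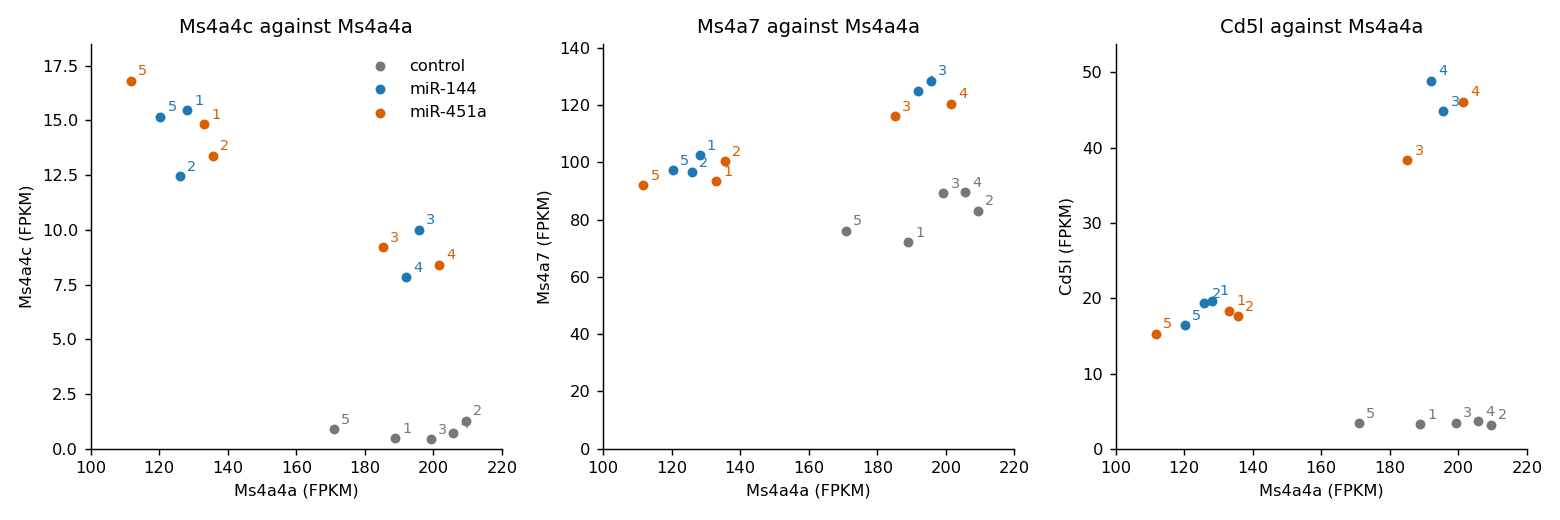
FPKM of Ms4a4c, Ms4a7 and Cd5l (vertical axes, from 0) against FPKM of Ms4a4a (horizontal axes, from 100) in the 15 samples, with the sample number beside each point. Samples 3 and 4 of the miR-144 and miR-451a groups share the Ms4a4a level of control TAMs, at 185 to 201 FPKM, but have less Ms4a4c and more Ms4a7 and Cd5l than samples 1, 2 and 5 of those groups.

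Ms4a4b, known from T cells where it associates with the receptor GITR (Tnfrsf18), was detected at a trace level. It was at 0.0396, 0.0603, 0.0359, 0.0568 and 0.0708 FPKM in control samples 1 to 5, at 0.297, 0.301, 0.248, 0.316 and 0.251 FPKM with miR-144, and at 0.287, 0.351, 0.286, 0.239 and 0.342 FPKM with miR-451a. All 15 values lay above the floor of 3 fragments, which was at most 0.0406 FPKM, within the sample that each floor belongs to, and the miRNA groups did not overlap the control. The mean was 5.37-fold of control with miR-144 and 5.72-fold with miR-451a, and the differences of 0.28 and 0.31 (SE 0.02, limma adjusted p = 3.57e-07 and 1.63e-07) are small because the scale compresses values under 1 FPKM. The rise of Ms4a4b in FPKM was 2.01% of that of Ms4a4c with miR-144 and 2.11% with miR-451a. Since 8.005% of the stretches of Ms4a4c also occur in Ms4a4b, reads of the abundant copy could be counted for the scarce one, and this was not tested. The 12 T and NK cell genes summed to at most 0.638 FPKM in any sample, with Cd3e and Cd3g listed at 0 in all 15.

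Ms4a1 was not detectable at this depth. It was listed at 0 in all 5 control samples, at 0, 0, 0, 0.0142 and 0.00805 FPKM in miR-144 samples 1 to 5, and at 0, 0.00757, 0, 0 and 0 FPKM in miR-451a samples 1 to 5. No sample exceeded its floor of 3 fragments, which was at most 0.0627 FPKM, so no fold is given, and neither comparison was called (limma adjusted p = 0.401 and 0.796). Among 11 B cell genes, Pax5, Blk, Cr2 and Ighd were all below 0.1 FPKM in every sample, and 2 were listed at 0. Cd79b, a chain of the B cell receptor complex, was called higher, at 0.0878 to 0.328 FPKM in control samples, 1.004 to 1.39 with miR-144 and 1.15 to 1.62 with miR-451a (differences 0.86 and 1.004, limma adjusted p = 1.67e-07 and 3.08e-08). Their summed FPKM was nevertheless 17.4 to 21.7 in control samples, 79.4 to 95.9 with miR-144 and 86.6 to 104 with miR-451a, because it was made up mostly of Ighm (8.24 to 10.95, 74.7 to 90.5 and 81.9 to 98.8 FPKM) and of Cd22 (7.60 to 11.6, 3.27 to 3.91 and 3.43 to 4.11 FPKM).

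The miR-451a group was also compared with the miR-144 group directly. None of the 8 members was called by limma, and 0% of the 11419 genes were. The smallest limma adjusted p over all genes was 0.0752. An unadjusted p under 0.05 was found for 596 genes, or 5.22%, near the share that chance alone gives. Among the members, Ms4a6d alone had an interval that left out 0, at -0.09 (95% confidence interval -0.16 to -0.02, unadjusted p = 0.0132, limma adjusted p = 0.946). The intervals were wide for Ms4a4c, with a difference of 0.03 (-0.41 to 0.47), and for Ms4a4a, with 0.01 (-0.36 to 0.37). They were narrower for Ms4a7, at -0.07 (-0.29 to 0.15), for Ms4a6b, at 0.02 (-0.10 to 0.15), and for Ms4a6c (-0.12 to 0.12). Differences inside these intervals could not be seen with 5 samples a group.

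The make-up of the family's RNA differed between control and miRNA groups. The summed FPKM of the 8 members was 441 ± 20.7 (SD, n = 5) in control TAMs, 668 ± 48.6 with miR-144 and 657 ± 48.4 with miR-451a. Ms4a4a held 44.2 ± 1.92% of the sum in control TAMs, 22.6 ± 3.97% with miR-144 and 23.1 ± 4.03% with miR-451a. Ms4a6c held 11.4 ± 1.28%, 28.8 ± 2.15% and 29.2 ± 2.20% in the same order of groups, and Ms4a6b 2.30 ± 0.276%, 10.9 ± 1.05% and 11.2 ± 1.16%. The shares of Ms4a6d (23.4%, 19.5% and 18.6%) and Ms4a7 (18.6%, 16.4% and 15.9%) were lower in the miRNA groups, although both genes rose in FPKM.

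The order of the members by mean level changed accordingly. In control TAMs it ran Ms4a4a, Ms4a6d, Ms4a7, Ms4a6c, Ms4a6b, Ms4a4c, Ms4a4b and Ms4a1, and no 2 neighbours in this order overlapped in their samples. In both miRNA groups Ms4a6c came first, followed by Ms4a4a, Ms4a6d and Ms4a7. The sample ranges of Ms4a6c and Ms4a4a overlapped there, as did those of Ms4a4a and Ms4a6d and those of Ms4a6d and Ms4a7, so the order of these neighbours is not set beyond the spread. Every Ms4a6c sample was nevertheless above every Ms4a6d and Ms4a7 sample. Ms4a6b, Ms4a4c, Ms4a4b and Ms4a1 kept their places below it, each apart from the next.

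**Figure D4:**
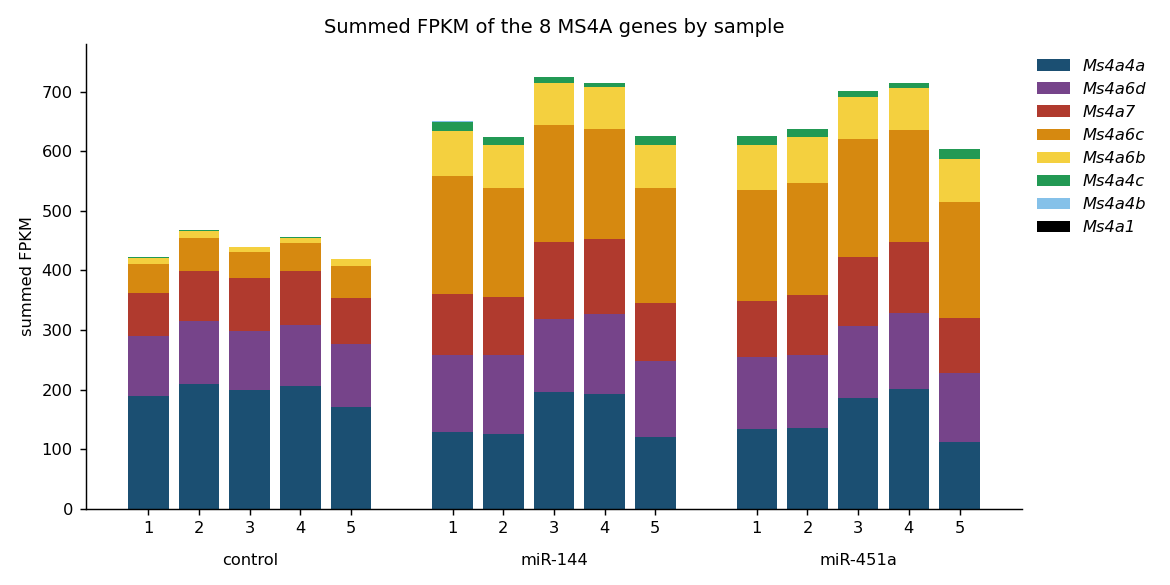
Summed FPKM of the 8 MS4A genes (vertical axis, from 0) in each sample of the 3 groups, stacked by gene. The sums are 419 to 467 FPKM in control samples, 624 to 724 with miR-144 and 604 to 715 with miR-451a, with Ms4a6c (orange) and Ms4a6b (yellow) taking larger parts in the miRNA groups.

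Beyond the members, 13 of 16 listed relatives were in the table and 3 of them had a mean of at least 1 FPKM, all of which rose in both comparisons, against 47.1% and 48.1% of all genes called higher. Ms4a14, between Ms4a1 and Ms4a7 in the cluster, was at 25.5 to 28.1 FPKM in control samples, 41.3 to 44.8 with miR-144 and 41.9 to 42.8 with miR-451a, differences of 0.66 and 0.64 (SE 0.03, limma adjusted p = 3.73e-11 and 5.15e-11). Tmem176a and Tmem176b, MS4A-like proteins of intracellular membranes that lie outside the cluster, rose from means of 5.49 and 12.9 FPKM to 25.2 and 82.0 with miR-144, and to 24.8 and 80.1 with miR-451a. For Tmem176b the differences were 2.58 and 2.54 (SE 0.10, limma adjusted p = 4.36e-12 and 4.78e-12), close in size to that of Ms4a6b.

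The remaining relatives averaged under 1 FPKM. Ms4a4d, above its floor of 3 fragments in all 15 samples, was at 0.248 to 0.640 FPKM in control samples, 0.367 to 1.43 with miR-144 and 0.545 to 1.63 with miR-451a and was not called (limma adjusted p = 0.118 and 0.107). Ms4a8a, described in alternatively activated macrophages, was at 0.0467 to 0.255 FPKM in control samples and 0 to 0.0995 with miR-144, and was listed at 0 in all 5 miR-451a samples. It was called lower by 0.13 and 0.18 (adjusted p = 0.0218 and 0.00190), but only 3 control samples and 1 miR-144 sample exceeded their floor of 3 fragments, so no fold is given. Ms4a2, the beta chain of the IgE receptor of mast cells, had 3 values above 0, none over its floor, and Ms4a15 was at most 0.0204 FPKM. Ms4a3, Ms4a5, Ms4a10, Ms4a12, Ms4a13 and Ms4a18 were listed at 0 in all 15 samples.

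Partners and signalling genes of the family were read from a list of 16 genes, of which 13 had a mean of at least 1 FPKM. Of these, 7 rose, 2 fell and 4 were not called in each comparison, counts near the shares over all genes (47.1% and 48.1% higher, 20.1% and 20.3% lower), and the median difference was 0.18 for miR-144 and 0.19 for miR-451a, near that of all genes. The partner of Ms4a4a, dectin-1 (Clec7a), fell most. It was at 306 to 397 FPKM in control samples, 108 to 145 with miR-144 and 109.8 to 127 with miR-451a, with differences of -1.45 and -1.52 (SE 0.09, limma adjusted p = 1.30e-09 and 7.44e-10). Card9, an adaptor in dectin-1 signalling, rose by 0.46 and 0.48, and Fcer1g, the signalling chain of Fc receptors and other lectin receptors, by 0.55 and 0.52. The kinase Syk was not called (0.07 and 0.05, with signs that turn under median centring), but was called higher after rescaling to TPM (adjusted p = 0.0160 and 0.0206). Trem2, a lipid receptor of macrophages whose soluble form has been linked to MS4A4A, was called higher by 0.13 and 0.17, and its adaptor Tyrobp by 0.23 and 0.19. Neither was called after median centring, where the miR-144 difference of Trem2 was -0.0060.

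The genes tied to Ms4a6d moved in both directions. Nlrp3, the sensor of the inflammasome, was at 0.800 to 1.16 FPKM in control samples, 12.1 to 13.5 with miR-144 and 12.7 to 13.8 with miR-451a, and rose by 2.78 and 2.86 (SE 0.05, limma adjusted p = 1.88e-15 and 1.24e-15). The kinase Jak2 fell from a mean of 22.7 FPKM to 10.1 and 10.6, by 1.10 and 1.02, whereas Stat3 rose by 0.24 and 0.23. Vsig4, the complement receptor that pairs with Ms4a6d, was below 1 FPKM in every sample, at 0.0284 to 0.245 in control samples, 0.298 to 0.5002 with miR-144 and 0.153 to 0.397 with miR-451a, and was called higher (adjusted p = 0.00192 and 0.0218), the second not under median centring or quantile normalization. Tnfaip3, which encodes A20, was not called, at -0.33 and -0.14 (adjusted p = 0.0651 and 0.415), but with miR-144 it was called lower under median centring (-0.47, adjusted p = 0.0154) and quantile normalization (-0.47, adjusted p = 0.0147).

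Genes linked to the members of lymphocytes and mast cells gave mostly small values. Cd81, a tetraspanin of the B cell co-receptor also made by macrophages, rose by 0.89 and 0.97. The calcium entry genes Orai1 and Stim1 were not called (Stim1 with miR-451a only after rescaling to TPM, adjusted p = 0.0348), nor was Tnfrsf18, the GITR gene. Kit, the mast cell receptor, was at most 0.101 FPKM in any sample and was called higher by 0.08 and 0.07, in the comparison with miR-144 not under median centring and in that with miR-451a neither under that nor under quantile normalization.

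The genes outside the family whose profile over the 15 samples was closest to that of each member were found by the root mean square difference of log2(FPKM + 1) after centring each gene on its mean. For Ms4a6b the closest was Tlr2, a receptor for bacterial lipoproteins, at 0.0701, followed by the IgG receptor gene Fcgr1 at 0.0889. Their means in control, miR-144 and miR-451a TAMs were 7.67, 60.4 and 61.0 FPKM for Tlr2 and 18.0, 122 and 118 FPKM for Fcgr1. For Ms4a6c the closest were Serinc3 (0.0696) and Pid1 (0.0879). For Ms4a4c they were the interferon-induced genes Ifi213 (0.187) and Ifit2 (0.203), and Ifi213 was at 0.638, 9.73 and 9.58 FPKM. The transcription factor gene Etv5 (0.132) and Gm12350 (0.146) were closest to Ms4a4a, Wfdc17 (0.0791) and Cd93 (0.0838) to Ms4a7, and Sec22a (0.0424) and Cars2 (0.0451) to Ms4a6d.

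Position in the cluster was set beside the differences. Among the MS4A genes of the cluster with a mean of at least 1 FPKM, 6 of 7 rose in each comparison, against 47.1% and 48.1% of all genes, and none fell, against 20.1% and 20.3%, with differences from -0.38 to 2.89 for miR-144 and from -0.37 to 2.92 for miR-451a. The other 3 expressed genes between them were BE692007, which overlaps Ms4a6c, AW112010 and Gm6501. Gm6501 fell by 0.21 with miR-144 (adjusted p = 0.0263) and was not called with miR-451a. AW112010, 85.3 kb from the start of the cluster, was not called, at 0.09 and 0.03 (adjusted p = 0.634 and 0.892). Of 9 expressed genes within 300 kb on either side, 1 rose and 4 fell in each comparison. The strongest falls there were Slc15a3, a lysosomal peptide transporter, by 1.33 and 1.41, and Tmem132a, by 1.02 and 1.15. The cluster itself was not uniform, since Ms4a4a (-0.38 and -0.37) lies between Ms4a7 (0.41 and 0.34) and Ms4a4c (2.89 and 2.92).

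**Figure D5:**
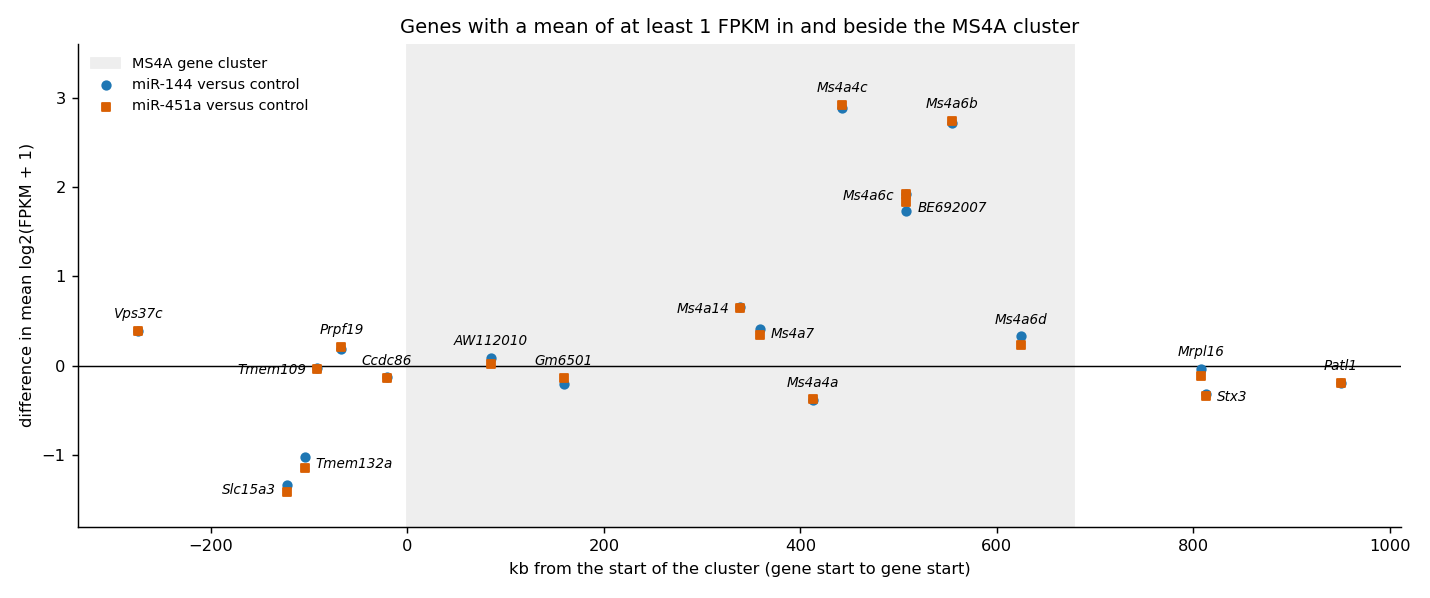
Difference from control in mean log2(FPKM + 1) (vertical axis) of genes averaging 1 FPKM or more, against the distance of the gene's start from the start of the MS4A cluster in kb (horizontal axis), for miR-144 (circles) and miR-451a (squares). The grey area is the cluster; Ms4a4c, Ms4a6c and Ms4a6b stand highest, at 1.92 to 2.92, and the flanking genes lie between -1.41 and 0.39.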

How the data were processed

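TAMs of 15 samples were grouped by the sample titles, 5 in each of the 3 groups. The authors deposited FPKM per gene and sample; the submitters' processing notes name FastQC 0.11.2, STAR and StringTie, and the genome build and annotation are not given in the sources used here. FPKM is divided by depth and transcript length, so a few very abundant genes can shift all others. Between 35.5% and 49.5% of low values lay on steps of whole fragments (10% by chance), so whole reads could not be restored and count tests were left out. Floors of 3 fragments and implied depths cover counting error only.

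Values were analysed as log2(FPKM + 1) with limma 3.58.1 in R 4.3.3, in a single fit of the 3 groups with a variance trend, and p-values were adjusted by Benjamini-Hochberg over every gene tested (mean of at least 1 FPKM, or above 0 in at least 1 sample for lower genes). Intervals are at 95%. The fitting script was tested on simulated data.

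Named genes were all members, relatives and partners from fixed lists, marker genes where they bear on a member, and the 2 closest profiles outside the family; BE692007, AW112010, Gm6501, Slc15a3 and Tmem132a were added after their values were seen. The members and lists were chosen with earlier results of these data known. Identity of coding bases, shared 50-base stretches and promoter motifs were computed with Python 3.11.15 and Biopython 1.88 from GENCODE M21 and RefSeq. Protein sequences were not used here. Alternatives were other pseudocounts, filters, scalings, variance models and sample sets.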

Additional observations from a re-analysis of the deposited data

Results flagged for a closer look

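In the 23 sets of 5 values of a member in a group that were not all equal, the gap between an extreme sample and its nearest neighbour was compared with Dixon's limit of 0.71 of the range. The only sample past it was miR-451a sample 2 for Ms4a1, at 0.00757 FPKM against 0 in the other 4 samples of the group. Chance gives about 1 in 20 such sets, the value is under the floor of 3 fragments, and no comparison rests on it.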

How the results depend on the processing

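The number of members called in either direction stayed within 1.5-fold of 6 in both comparisons with control (5 to 8 over all settings, and 6 to 7 with each sample left out in turn) and at 0 between the miRNA groups. The 8 came with median centring for miR-144, which added Ms4a1 and Ms4a4a as lower. Among 29540 genes it called 5525 higher and 11171 lower, against 6835 and 2851 in the main fit. Among 11419 genes it called 3512 and 3511, against 5376 and 2292. Ms4a4c, Ms4a6b, Ms4a6c, Ms4a6d and Ms4a4b kept their direction and their call in every setting in which they were tested, and Ms4a7 in all but median centring for miR-451a. The signs that turned were of values near 0. Median centring moves genes listed at 0 by construction and gave Ms4a1 -0.052 for miR-144 and -0.063 for miR-451a, both called, and Ms4a4a -0.0017 between the miRNA groups. Between the miRNA groups, Ms4a6c was 0.0051 after quantile normalization and 0.010 after rescaling to TPM, and with samples left out in turn Ms4a4a ranged from -0.098 to 0.11, Ms4a4c from -0.10 to 0.15 and Ms4a6c from -0.016 to 0.011, none called. The cause was not tested.

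Samples share the numbers 1 to 5 across groups, and same-numbered samples deviated together in part. Correlations across genes were -0.127 to 0.108 for miR-144 with control and 0.0658 to 0.264 for miR-451a with control. Between the miRNA groups they were -0.150 to 0.241. The own number was best in 12 of 30 cases, more often than a random pick among 5 samples gives on average. The labels name no pairs, so the main fit does not take the numbers as pairs. With the number as a replicate block, 7 members were called in each comparison with control. Ms4a4a was added at -0.38 (limma adjusted p = 0.00528) and -0.37 (limma adjusted p = 0.00584). Over the 11419 genes, 5408 were higher and 2303 lower for miR-144, and 5511 and 2348 for miR-451a.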

Other observations

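Markers of mast cells and basophils, neutrophils and dendritic cells were low in all samples. The 8 mast cell and basophil genes summed to 0.167 to 0.451 FPKM in control samples, 0.558 to 1.74 with miR-144 and 0.726 to 1.31 with miR-451a, the 7 neutrophil genes to at most 1.16 FPKM in any sample, and the 6 dendritic cell genes to 0.300 to 0.420, 0.667 to 0.830 and 0.548 to 0.851 FPKM. The 10 macrophage genes summed to 8820.4 to 9680.1 FPKM in control samples, 14924 to 16839 with miR-144 and 14590.3 to 15915 with miR-451a. Most of this sum was Lyz2, with means of 6894.0, 13171 and 12581 FPKM. In both comparisons 7 of the 10 were called higher (against 47.1% and 48.1% of all genes), among them Fcgr1 (2.69 and 2.64), Cd14 (2.55 and 2.51) and Aif1 (2.23 and 2.20), and 2 were called lower (against 20.1% and 20.3%), among them Cd68 (-0.65 and -0.67). These 4 genes, the first 3 of them the largest increases of the list, were picked from the list after their values were seen. Itgam, listed in 2 rows of the table, was not called in the row with the higher mean.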
